A study of Homo sapiens with 11 samples.

Results

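Ubiquitin is attached to proteins by a relay of enzymes and removed again by proteases, and the transcripts of these enzymes were examined here as RNA bound by ZFP36L2 in leukaemia cells. The genes were chosen by name. A gene belonged to the set when its symbol in the deposited peak tables began with UBE2, UBE3, UBE4, USP, RNF, TRIM, FBXO, FBXL or FBXW followed by a letter or digit, with UBE2W, TRIM66 and names joined by a bar left out. With peaks enriched over input in at least 1 immunoprecipitate, 159 genes met this rule, of 6881 genes in the whole series. They held 1709 enriched peaks, which overlapped into 514 sites. Of the 159 genes, 4 were not protein coding, namely the antisense transcripts FBXL19-AS1 and UBE2R2-AS1 and the pseudogenes RNF216P1 and UBE2MP1. RNF219 of the tables is now called OBI1.

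ZFP36L2 (TIS11D) is a zinc finger protein of the TIS11 family, which binds AU-rich elements in 3' UTRs and recruits the enzymes that shorten the poly(A) tail and degrade the transcript. It was profiled by eCLIP, in which ultraviolet light fixes proteins to RNA and the RNA recovered with an antibody is sequenced, in MOLM13 and THP1, which are established human acute myeloid leukaemia lines. Neither line carried a treatment or a genetic change in the labels. Crosslinking used 254 nm light at 400 mJ/cm2, and complexes of 30 to 105 kDa were taken. The 11 libraries comprised 2 anti-ZFP36L2 immunoprecipitates and 2 IgG controls per line, 2 inputs of MOLM13 and 1 of THP1, where the input was 2% of the lysate. Whether the duplicates are separate cultures is not in the labels, and the spread between them may be technical. They also do not say whether both THP1 immunoprecipitates were set against the same input. Of 10 monocytic marker genes, 6 had a listed cluster in both MOLM13 replicates and 7 in both THP1 replicates, against 0 of 6 lymphoid markers in either line and 1 of 6 erythroid markers in each.

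In the ubiquitin relay, an activating enzyme (E1) passes ubiquitin to a conjugating enzyme (E2, most of them named UBE2), and a ligase (E3) brings the loaded E2 to the substrate. UBE3 genes are named for HECT ligases, which carry ubiquitin on their own cysteine, RNF and TRIM genes mostly encode RING ligases, and FBXO, FBXL and FBXW genes encode F-box proteins, the substrate receptors of SCF ligases built on the scaffold CUL1. USP genes encode ubiquitin-specific proteases. In myeloid cells these enzymes act in cell cycle control, in Toll-like receptor and interferon signalling and in the turnover of oncoproteins.

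An enriched peak reached 3 both in its log2 fold over input and in its −log10 p, the authors' limits. A site was a run of overlapping enriched peaks of 1 gene over the 4 immunoprecipitates, and its value in a library was the highest log2 fold in it. Genes with an enriched peak in both replicates are called targets of that line. All folds below are log2 folds of the immunoprecipitate over its control, as the authors computed them, and are no measure of expression.

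Sequence is shown for the parts of 2 sites that reach into a RefSeq promoter window of the same genome version (GRCh38.p14). They are shown because the base compositions of these parts are opposite, and the rest of each site was not read. The first was labelled intronic in RNF217, a RING-type ligase, at chr6:124983092-124983219 on the plus strand (hg38), upstream of the RefSeq start of the gene at 124983368. It was found in THP1 only, where its log2 folds were 4.05 and 3.96 over input but 2.81 and 2.96 over IgG. The second lies in the 5' UTR of RNF2, which encodes RING1B, the catalytic subunit of Polycomb repressive complex PRC1, at chr1:185045522-185045625 on the plus strand. It too was found in THP1 only, where its log2 folds were 5.42 and 5.13 over input but 2.59 and 2.55 over IgG. Neither site passed the threshold over IgG. The stretches chr6:124983118-124983219 and chr1:185045558-185045587 follow 5′ to 3′ as DNA, and capitals mark the pentamer ATTTA, the core of AU-rich elements, searched on the sense strand with overlapping matches counted.
RNF217: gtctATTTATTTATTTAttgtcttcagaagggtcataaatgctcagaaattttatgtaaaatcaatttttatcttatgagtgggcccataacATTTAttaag
RNF2: atattgtgcggcggcgccggcgtccgcggc
The RNF217 stretch of 102 bases held 4 matches, and A and T made up 73.5% of it. The RNF2 stretch of 30 bases held 0 matches, and G and C made up 76.7% of it. Of 35116 promoter windows of 300 bases, 18.8% held ATTTA on the sense strand, and their median GC content was 58.7%. The 2 stretches and the windows differ in length, so their matches cannot be compared. The match is a description of these letters and was not tested as a binding site.

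ZFP36L2 peaks were found in 103 of the ubiquitin genes in both MOLM13 replicates, which is 42.6% of the 242 with clusters there, beside 32% of all genes. They were found in 128 in both THP1 replicates (53.6% of 239, beside 35.4%) and in 95 in all 4 immunoprecipitates (42.6% of 223, beside 31.6%). Protein-coding members were read against all protein-coding genes with a listed cluster in the same libraries. In MOLM13, 101 of 224 protein-coding members (45.1%) were targets, beside 38.6% of all such genes. In THP1, 125 of 221 (56.6%) were targets, beside 41.9%. In all 4 libraries, 93 of 212 (43.9%) held an enriched peak, beside 36.5%. The members' share was above the background in each of these comparisons, and this difference was not tested. Rows naming several genes (1420, of which 1 held a family symbol) made no single gene a target. The shares of all genes and of other genes, here and below, may therefore be too low, and by how much was not counted.

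The members also had more clusters per gene, with medians of 9.5 against 6.5 for other genes in MOLM13 and 8 against 5.5 in THP1. Genes were therefore split by their mean number of clusters, listed peaks before any enrichment threshold. Among genes with up to 5 clusters, 17 of 52 members (32.7%) were MOLM13 targets against 15.4% of other genes, and 26 of 66 (39.4%) were THP1 targets against 16.1%. With over 5 and up to 20 clusters the members' shares were 33.0% and 46.2%, against 38.1% and 47.3%. With over 20 clusters they were 80.7% and 89.1%, against 79.1% and 87.4%. Members and other genes were thus apart at few clusters per gene and closer to each other above that. The share of 3' UTR targets was 19.2% against 9.38% in MOLM13 and 21.2% against 8.06% in THP1 at up to 5 clusters. With over 5 and up to 20 it was 15.7% against 13.8% and 14.3% against 14.7%. Above 20 clusters the members lay below other genes, with 17.5% against 22.3% in MOLM13 and 21.9% against 25.5% in THP1.

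**Figure D1:**
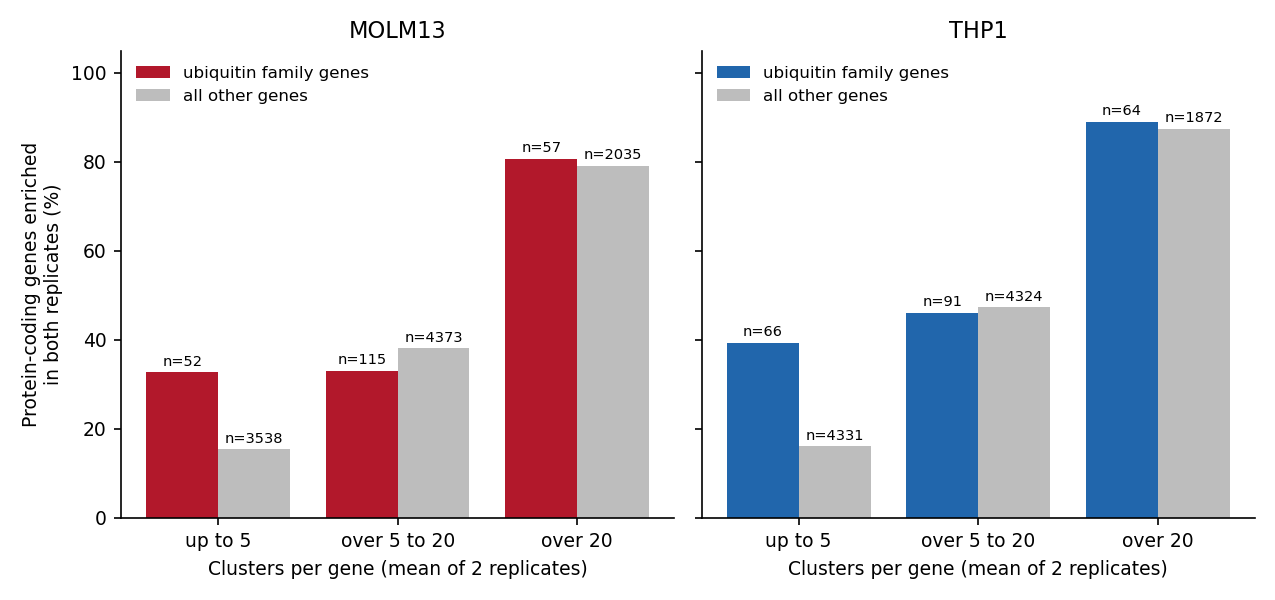
Share of protein-coding genes (%, y axis) that were targets in both replicates, by the number of clusters per gene (x axis), for MOLM13 (left) and THP1 (right); coloured bars are the ubiquitin family genes, grey bars all other genes, and n is the number of genes. The coloured bars stand above the grey ones at up to 5 clusters (32.7% against 15.4% and 39.4% against 16.1%) and close to them in the other bins.

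Among the families, the E2 genes and the RING genes gave the most targets. Of 36 UBE2 genes with clusters in all 4 libraries, 19 were targets of both lines (52.8%), and of 59 RNF genes 27 were (45.8%). The ubiquitin proteases followed with 17 of 45 USP genes (37.8%), and the TRIM genes with 11 of 31 (35.5%). The F-box families gave 10 of 26 FBXO (38.5%), 5 of 13 FBXL (38.5%) and 2 of 7 FBXW genes (28.6%). UBE3 and UBE4 are small, with 3 of 4 and 1 of 2 genes. Over all genes with clusters in all 4 libraries the share was 31.6%, and over protein-coding genes 36.5%. The USP, TRIM, FBXO and FBXL shares lay close to the latter, and no family was tested. All 17 USP targets of MOLM13 were targets of THP1, which had 8 more, while FBXO was the one family with more targets in MOLM13 (12) than in THP1 (11).

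**Figure D2:**
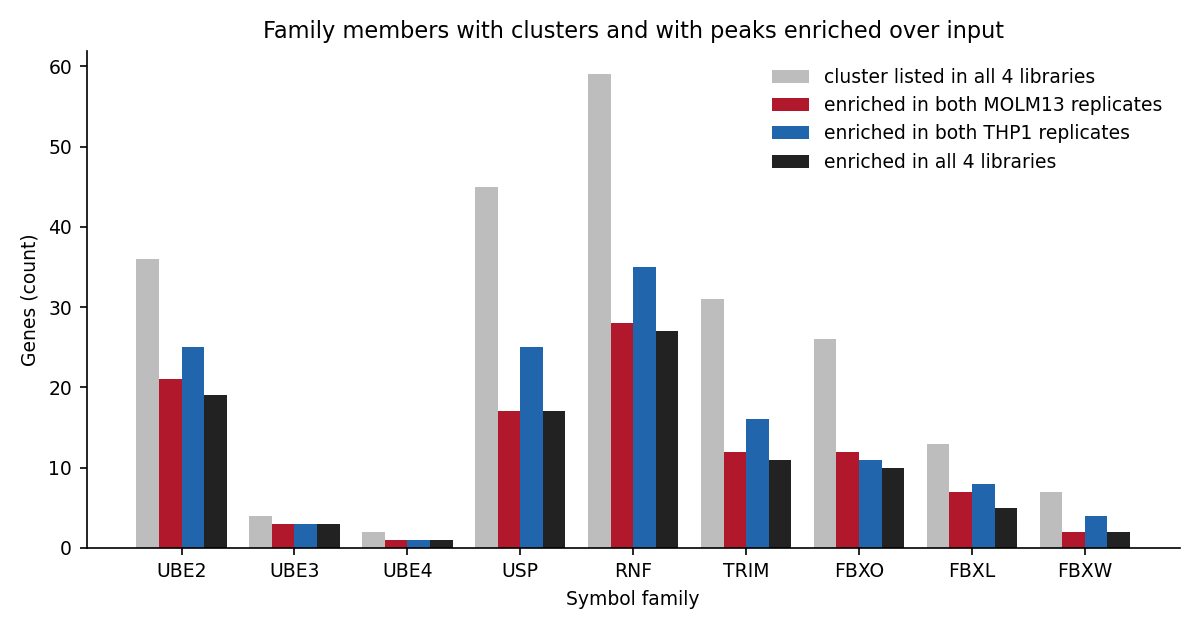
Number of genes (y axis) in each symbol family (x axis) with a listed cluster in all 4 libraries (grey), with a peak enriched over input in both MOLM13 replicates (red), in both THP1 replicates (blue) and in all 4 (black). RNF is the largest family, with 59 genes with clusters and 27 enriched in all 4 libraries, and the UBE2 family follows with 19 enriched in all 4.

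The peaks of the ubiquitin genes were mostly intronic. In MOLM13, 76.7% and 69.2% of their peaks lay in introns, and in THP1 81.7% and 79.9%. Intronic member peaks numbered 267 and 256 in MOLM13, against 412 and 389 in THP1. Those in 3' UTRs numbered 68 and 89 in MOLM13, against 76 and 83 in THP1, so the lines overlapped in number. In 3' UTRs lay 19.5% and 24.1% in MOLM13, against 15.1% and 17.0% in THP1, which gives 21.8% ± 3.2 (SD, n = 2) and 16.1% ± 1.4 (SD, n = 2). The share was lower in both THP1 libraries than in both MOLM13 libraries, by 5.74 percentage points, and the exact permutation test (two-sided) gave p = 0.333, the smallest that 2 against 2 libraries allow. Without MOLM13 replicate 2, THP1 minus MOLM13 was -3.48 percentage points. Other genes had the same order, with 20.2%, 22.7%, 16.1% and 16.7% of their peaks in 3' UTRs. The difference between members and other genes was -0.0150 percentage points ± 1.07 (SD, n = 4 libraries), with p = 1 by an exact sign-flip permutation test (two-sided), whose smallest p is 0.125. Its sign was positive in 2 of 4 libraries and turned with other settings. Coding sequence held 8, 14, 11 and 10 member peaks, and 5' UTRs held 0, 0, 1 and 2.

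Most peaks recurred. In the other replicate of the line, 78.4%, 79.7%, 83.3% and 87.3% of the members' peaks in MOLM13 replicates 1 and 2 and THP1 replicates 1 and 2 were found again, against 78.4%, 84.0%, 81.8% and 85.1% of other genes' peaks. The difference was -0.114 percentage points ± 2.92 (SD, n = 4), positive in 3 of 4 libraries, with p = 1 by the same exact test. The replicates of a line were scored against each other, so the 4 values are not independent, as the test takes them to be. For the other line both of its replicates were searched together, so those shares cannot be set against the ones above. In the other line, 89.4%, 87.0%, 74.2% and 77.0% of the members' peaks were found again, beside 83.0%, 85.6%, 69.5% and 71.5% for other genes. These shares were higher for the members in each of the 4 libraries.

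Against IgG the yield was lower and varied between libraries. Of all clusters inside a member, 10.8%, 8.44%, 13.5% and 13.9% were enriched over input, beside 10.3%, 7.89%, 12.6% and 13.1% of all clusters. Over IgG, 4.91%, 2.57%, 5.75% and 8.70% were enriched, beside 5.11%, 2.49%, 5.74% and 8.36%. Of the members' peaks over input, 40.8% and 28.4% in MOLM13, against 41.5% and 59.1% in THP1 also passed the threshold over IgG at the same coordinates. MOLM13 replicate 2 was lowest and THP1 replicate 2 highest, and other genes gave 45.0%, 28.0%, 43.2% and 59.0%. The difference between members and other genes was -1.35 percentage points ± 2.10 (SD, n = 4), with p = 0.5 by the exact sign-flip permutation test.

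The members' 3' UTR peaks passed over IgG more often than their intronic peaks in each library. For 3' UTRs the shares were 58.8%, 49.4%, 51.3% and 72.3%, and for introns 35.2%, 19.5%, 40% and 56.8%. The folds over input ran opposite: their medians were 3.83, 4.08, 4.01 and 4.15 for 3' UTR peaks, below the 4.64, 4.50, 4.63 and 4.57 of intronic peaks. Among other genes the shares over IgG were 58.8%, 49.6%, 54.5% and 64.7% for 3' UTR peaks, against 41.0%, 20.5%, 41.0% and 58.8% for intronic peaks. With both controls required, 43 protein-coding members (19.2%) were MOLM13 targets beside 16.4% of all such genes, 76 (34.4%) were THP1 targets beside 26.6%, and 38 (17.9%) were targets in all 4 libraries beside 14.3%.

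**Figure D3:**
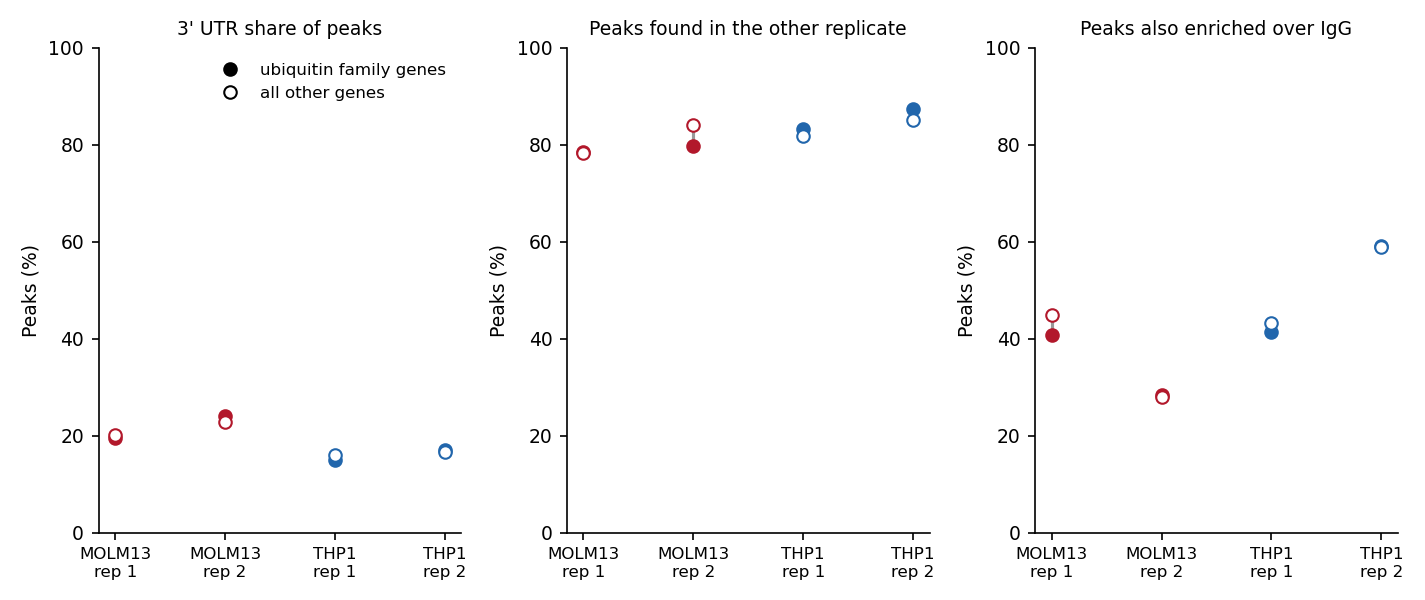
Share of peaks (%, y axis) in each immunoprecipitate (x axis, MOLM13 in red and THP1 in blue) that lay in a 3' UTR (left), were found again in the other replicate (middle) and were also enriched over IgG (right); filled circles are the ubiquitin family genes and open circles all other genes. Filled and open circles lie close to each other in every library, while the share over IgG ranges from 28.4% to 59.1% between libraries.

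In 3' UTRs, 38 members were targets of MOLM13 (17.0% of protein-coding members with clusters, beside 14% of all such genes), 41 of THP1 (18.6% beside 14%) and 29 of both lines (13.7% beside 10.9%, or 13.0% beside 9.19% with noncoding genes counted), while 78 members had no 3' UTR peak in any library. The 3' UTR peaks formed 113 sites, of which 30, in 26 genes, were found in all 4 immunoprecipitates. That is 26.5% of the members' sites, beside 25.4% for other genes. Of these 30 sites, 17 were also enriched over IgG in all 4 libraries (56.7%, beside 44.9%) and 2 in none. They lay a median of 1536 bases from the annotated gene end (1085 for other genes), and 18 of 30 lay within 2000 bases of it. The libraries of the lines did not overlap at 16 of the 30 sites. Of these, 7 were higher in MOLM13 (23.3%, beside 16.5% for other genes) and 9 in THP1 (30%, beside 22.2%).

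Among the E2 genes, 6 had a 3' UTR site in all 4 libraries. UBE2T, the E2 of the Fanconi anaemia DNA repair pathway, had a site at chr1:202331675-202331769, 18 bases from the gene end, and reached log2 folds of 4.51 and 5.27 over input in MOLM13, against 4.78 and 4.92 in THP1. Over IgG the same site reached 3.79 and 5.50 in MOLM13, against 4.54 and 3.92 in THP1. The lines overlapped, and all 4 libraries passed both controls. UBE2Q1 had folds of 4.42, 4.94, 4.11 and 5.42 at chr1:154550008-154550149, in the order MOLM13 replicates 1 and 2 and THP1 replicates 1 and 2 that is kept from here on. The lines overlapped, and 3 of 4 libraries passed over IgG.

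UBE2B is a RAD6 homologue that acts with RAD18 in DNA damage tolerance. Its site at chr5:134390490-134390648 had folds of 4.10, 3.96, 4.35 and 4.78 against input, with 3.73, 5.51, 3.28 and 4.77 against IgG. Over input both THP1 values lay above both MOLM13 values, by 0.54 on average, an order that the values over IgG do not have. UBE2N (UBC13) builds the lysine-linked chains used in NF-κB signalling and DNA repair. Its site at chr12:93409520-93409727 had 3.42, 3.91, 4.12 and 3.56, with the lines overlapping, and over IgG 1.44, 3.37, 4.75 and 3.65. In UBE2Z, an E2 charged by UBA6, the 3' UTR site at chr17:48927643-48927761 was near the threshold in MOLM13 (3.24 and 3.01) and higher in THP1 (5.02 and 5.39). UBE2D3, an E2 used by many ligases, completed the group with 5.52, 4.71, 4.64 and 3.40 at chr4:102796611-102796699, higher in MOLM13; these last genes were picked out after their values were seen.

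Of the HECT genes, UBE3A and UBE3C had such a site. UBE3A encodes E6AP, the ligase whose loss in neurons causes Angelman syndrome. Its site at chr15:25338777-25338912 had folds of 4.75, 5.22, 6.07 and 5.45 over input, with 3.76, 3.86, 4.83 and 4.44 over IgG, and THP1 was above MOLM13 with both controls. SNHG14 is annotated on the opposite strand there. UBE3C, a ligase associated with the proteasome, had 4.33, 5.38, 6.07 and 5.37 at chr7:157269237-157269368, which ended 2 bases from the gene end. The lines overlapped in UBE3C, and over IgG it reached 4.56, 5.61, 3.83 and 5.95.

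RING genes with a shared 3' UTR site showed both orders of the lines. RNF123 (KPC1) is a ligase of the cell cycle inhibitor p27. Its site at chr3:49721310-49721511 had 5.31 and 5.55 in MOLM13, against 4.04 and 3.66 in THP1, while over IgG it had 3.32, 3.20, 5.60 and 3.98, so the order of the lines turned with the control. GMPPB is annotated on the opposite strand. RNF19B, a RING-between-RING ligase, had 6.38 and 4.51 in MOLM13, against 3.69 and 4.15 in THP1 at chr1:32936512-32936628. MOLM13 was higher there, with its replicates further apart than the means of the lines.

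RNF215 had 4.21, 4.00, 4.77 and 4.84 at chr22:30379111-30379236, higher in THP1, and 1 of 4 libraries passed over IgG. RNF41 (NRDP1), a ligase of ERBB3, had 5.04, 4.55, 3.84 and 4.77 at chr12:56205463-56205562, with the lines overlapping and all 4 libraries past the IgG threshold. TRIM46, known for bundling microtubules in the axon, had the widest gap among the named 3' UTR sites, at chr1:155184604-155184772. Its folds were 5.59 and 6.92 in MOLM13, against 3.80 and 4.22 in THP1, so that MOLM13 was higher by 2.25 on average. Over IgG the same peaks had 3.61, 4.57, 4.14 and 3.80, and the lines overlapped.

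TRIM11, a ligase of the tripartite motif family, had 4.14 and 3.63 in MOLM13, against 5.33 and 5.79 in THP1 at chr1:228393679-228393784, ending 3 bases from the gene end, a mean gap of 1.67 toward THP1. Over IgG the values were 4.16, 3.60, 3.50 and 5.79, and the lines overlapped. An intronic site of the same gene at chr1:228398519-228398669 had 6.28 and 6.0 in MOLM13, against 5.28 and 5.20 in THP1, the opposite order. TRIM44 had the lowest mean of the 30 sites, with 4.54, 3.15, 3.26 and 3.38 at chr11:35808004-35808146.

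Of the 30 3' UTR sites, those of F-box genes had the highest means, in FBXO28, FBXO41 and FBXO45. FBXO28 had 6.98, 5.68, 6.38 and 7.35 at chr1:224161157-224161243, a mean of 6.60 ± 0.73 (SD, n = 4). Over IgG it kept 5.99, 5.33, 6.14 and 6.34, all past the threshold, and the lines overlapped over input and not over IgG. FBXO41 had 5.37, 6.61, 6.52 and 5.93 over input at chr2:73258218-73258359, and 5.38, 3.67, 4.28 and 4.34 over IgG. FBXO45, which forms a ligase with the large RING protein MYCBP2, had 4.64, 5.65, 4.83 and 6.66 at chr3:196588589-196588706. A second FBXO45 site at chr3:196584740-196584842 was lower, with 3.79, 3.42, 3.80 and 4.38.

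FBXL20 had 3 shared 3' UTR sites, more than any other member. The strongest, at chr17:39255412-39255517, had 4.71 and 4.67 in MOLM13, against 5.97 and 5.75 in THP1, and over IgG 3.14, 2.32, 3.14 and 3.17. The neighbouring site at chr17:39255530-39255601 had 5.24, 3.04, 4.78 and 3.90 and passed over IgG in no library. The other site, at chr17:39259234-39259361, had 4.73, 3.40, 5.92 and 5.87 over input, with 0.74, 1.04, 4.68 and 3.87 over IgG, so it passed over IgG in THP1 alone. No FBXW gene had a 3' UTR peak, and 97.9% of FBXW peaks were intronic.

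Among the proteases, USP31 had 2 shared 3' UTR sites with opposite orders of the lines over input. The site next to the gene end, at chr16:23061513-23061627, had 4.75 and 5.16 in MOLM13, against 5.88 and 5.67 in THP1. The site 6531 bases from the end, at chr16:23067937-23068043, had 6.50 and 5.44 in MOLM13, against 4.68 and 4.16 in THP1. Both passed over IgG in all 4 libraries, with 6.09, 3.81, 4.05 and 5.67 at the first and 4.93, 5.67, 3.43 and 4.16 at the second. Within 1 transcript region, then, THP1 was higher over input at the first site and MOLM13 at the second. Over IgG the lines overlapped at the first site, while MOLM13 was again higher at the second.

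USP7 (HAUSP), which deubiquitinates MDM2 and p53, had 3.81, 6.0, 4.67 and 3.54 at chr16:8893795-8893898. Its MOLM13 replicates were further apart than the means of the lines, and all 4 libraries passed over IgG. USP11 had 3.68, 5.86, 3.48 and 3.93 at chrX:47248121-47248267 and passed over IgG in MOLM13 (3.40 and 3.92) and not in THP1 (1.23 and 1.47). USP2 had 5.04 and 4.74 in MOLM13, against 3.13 and 4.24 in THP1 at chr11:119355656-119355783, with 1 library past the IgG threshold.

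**Figure D4:**
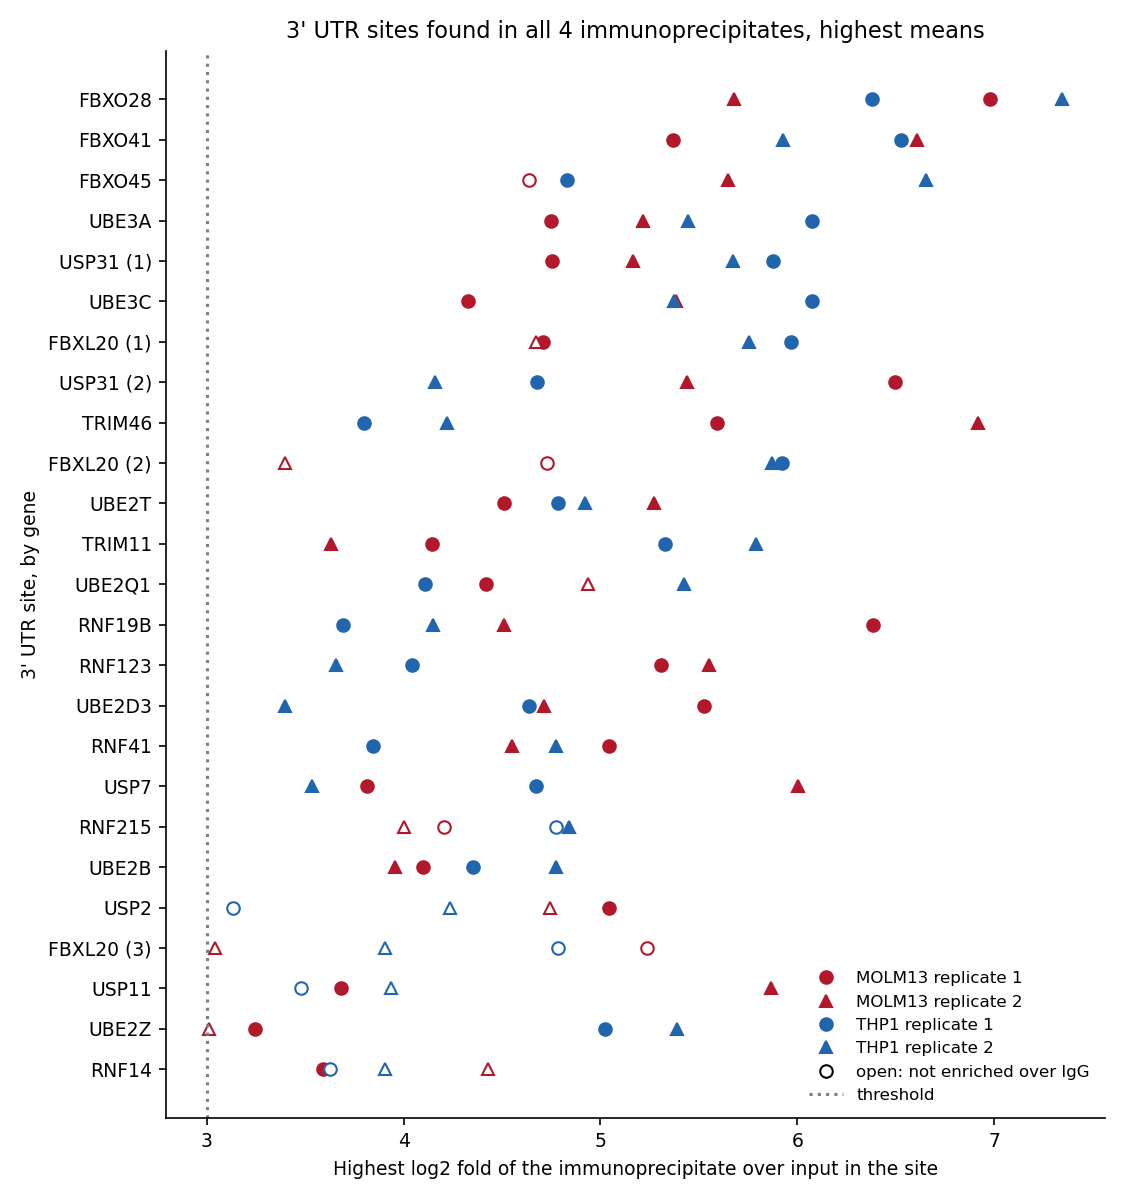
Highest log2 fold over input (x axis) of the 25 3' UTR sites with the highest means among those found in all 4 immunoprecipitates, by gene (y axis), ordered by mean; red marks are MOLM13 and blue marks THP1, circles replicate 1 and triangles replicate 2, open marks did not pass the threshold over IgG, and the dotted line is the threshold of 3. FBXO28 and FBXO41 lie highest, USP31 (1) and USP31 (2) have the lines in opposite order, and FBXL20 (3), the site beside the strongest one of that gene, has open marks only.

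In introns, 145 of the members' 367 sites, in 67 genes, were found in all 4 libraries (39.5%, beside 33.9% for other genes). Of these, 20 were also enriched over IgG in all 4 libraries (13.8%, beside 14.5%). THP1 was higher without overlap at 58 sites (40%, beside 39.9%) and MOLM13 at 12 (8.28%, beside 11.2%), and 75 overlapped. The median gap toward THP1 was 0.52, beside 0.44 for other genes, so the members' introns had the same order of the lines as those of other genes. The replicates of a line differed by a median of 0.55 in MOLM13 and 0.60 in THP1 at these sites.

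The strongest of all member sites lay in an intron of RNF216 (TRIAD3), a ligase that limits Toll-like receptor signalling, at chr7:5734753-5734842. It had folds of 9.0, 8.60, 8.49 and 8.58 over input, with 3.63, 2.99, 3.15 and 5.58 over IgG. MOLM13 was higher by 0.27 on average, less than the gap between its own replicates, although the values of the lines did not overlap. RNF216P1, a pseudogene copy of RNF216 on the same chromosome, had an intronic site with 7.10, 6.85, 6.66 and 6.90 at chr7:4979334-4979398. How reads that match both copies were treated is not stated in these sources, so these 2 genes are uncertain.

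RNF130, a membrane-bound RING ligase, had 8.36, 8.90, 7.61 and 8.73 at chr5:179977795-179977882, close to an exon by the authors' region label, and 4.47, 4.09, 3.91 and 5.14 over IgG. USP48 had 8.53, 7.46, 8.45 and 7.27 at chr1:21774865-21775003, and an intron of USP31 had 8.02, 6.72, 7.52 and 8.71 at chr16:23123491-23123564. Both passed over IgG in all 4 libraries. TRIM52 had 7.25, 7.88, 7.48 and 7.42 at chr5:181257933-181258020, a mean of 7.51 ± 0.27 (SD, n = 4), and passed over IgG throughout.

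The E2 genes with the strongest intronic sites were higher in THP1. UBE2R2 (CDC34B), an E2 of SCF ligases, had 6.63 and 5.90 in MOLM13, against 7.36 and 7.51 in THP1 at chr9:33893644-33893747, and UBE2Z had 5.67, 5.63, 6.48 and 7.02 at chr17:48919091-48919173. Each passed over IgG in 3 of 4 libraries. UBE3D had 6.95, 7.18, 7.17 and 7.65 at chr6:82996188-82996334 and UBE3C 6.63, 7.32, 6.23 and 7.89 at chr7:157256110-157256211, with the lines overlapping in both. UBE4B, a U-box enzyme that lengthens ubiquitin chains, had 5.27, 5.16, 5.87 and 5.38 at chr1:10121413-10121504 and passed over IgG in THP1 replicate 2 alone.

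In F-box introns, FBXW11 (β-TrCP2), the receptor that marks IκB and β-catenin for degradation, had 7.71, 7.09, 7.73 and 6.69 at chr5:171931128-171931248, and 3.40, 3.41, 4.90 and 6.68 over IgG. FBXW8, which assembles with CUL7, had 6.73, 6.70, 7.72 and 6.07 at chr12:117013743-117013829. FBXO46 had 6.16, 8.13, 6.69 and 9.11 at chr19:45719186-45719261, where replicate 2 exceeded replicate 1 in both lines by more than the lines differed. FBXO42 had 7.64, 6.36, 6.50 and 6.79 at chr1:16331677-16331763. FBXL20 had 6.84, 6.36, 6.68 and 6.78 at chr17:39384466-39384533, and FBXL17, a receptor that removes misassembled BTB protein dimers, had 4.27, 4.48, 4.54 and 4.55 at chr5:108272230-108272299 and passed over IgG in no library.

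The most sites shared by all 4 libraries were in FBXL20 (10), USP34 (8) and USP32 (6), and FBXW11, RNF4, UBE2E1, UBE3A, UBE3C, USP31 and USP48 were tied with 4 each. The sites of USP34 and USP32 were all intronic, as were 7 of the 10 in FBXL20. FBXL20, USP34 and USP32 are long genes of 149.9, 283.6 and 245.1 kb. FBXL20 held 15, 14, 23 and 27 enriched peaks and USP34 held 16, 13, 27 and 21, more in both THP1 libraries than in both MOLM13 libraries.

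Coding sequence held 23 member sites, of which 3 were common to all 4 libraries (13.0%, beside 20% for other genes). RNF145, a sterol-responsive ligase of the endoplasmic reticulum, had 4.37, 4.65, 4.38 and 4.21 at chr5:159161493-159161625. RNF167 had 4.71, 4.12, 4.33 and 3.33 at chr17:4942849-4942941. FBXO9 had 3.59, 3.31, 3.58 and 3.23 at chr6:53098080-53098264 and was the one that passed over IgG in all 4 libraries, with 3.61, 3.76, 4.92 and 3.81. At each of the 3 sites the lines overlapped. A site in an exon of the antisense transcript FBXL19-AS1 at chr16:30920763-30920917 had 5.96, 5.59, 6.24 and 7.99 over input, with 3.98, 4.65, 4.68 and 5.41 over IgG.

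The target sets of the lines overlapped in 95 genes, which are 92.2% of the MOLM13 targets and 74.2% of the THP1 targets (87.1% and 74.7% for other genes). THP1 alone had 33 targets, 18 of them with no MOLM13 peak. MOLM13 alone had 8, and 6 of these (FBXL13, FBXO17, FBXO5, RNF44, TRIM13 and UBE2A) had no THP1 peak. In 3' UTRs the 29 shared targets are 76.3% of those of MOLM13 and 70.7% of those of THP1 (72.3% and 68.5% for other genes).

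Of the 3' UTR targets, 3 of MOLM13 and 4 of THP1 had no enriched peak at all in the other line. No share of other genes stands beside these counts or the like ones above, so they only describe the named genes. In MOLM13 these were RNF44, FBXO5 and UBE2A. FBXO5 encodes EMI1, the inhibitor of the anaphase-promoting complex, and had 3.93 and 3.43 at chr6:152970565-152970683, with 3 and 2 clusters and no enriched peak in THP1. RNF44 had 3.96 and 3.45 at chr5:176527428-176527541, with 6 and 7 clusters in THP1. UBE2A, the other RAD6 homologue, had peaks of 4.01 and 3.0 that lay at different places of its 3' UTR in the replicates.

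In THP1 the corresponding genes were RNF115, USP30, UBE2J1 and TRIM36. RNF115 (BCA2) had 5.46 and 4.51 at chr1:145743722-145743787, with 12 and 27 clusters in MOLM13. USP30, a protease of the outer mitochondrial membrane that restrains mitophagy, had 3.63 and 4.08 at chr12:109086755-109086864. UBE2J1, the E2 of endoplasmic reticulum degradation, had 3.82 and 3.05 at chr6:89329079-89329199. TRIM36 had 4.25 and 4.42 at chr5:115126136-115126245, with 0 and 2 clusters in MOLM13. None of these MOLM13 and THP1 genes passed over IgG in both replicates of its line. Of all protein-coding genes with clusters, 16.4% in MOLM13 and 26.6% in THP1 passed both controls in both replicates, and the difference was not tested.

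Sites found in both replicates of one line and in no library of the other were mostly intronic and mostly in THP1, in members and other genes alike. Of the members' 367 intronic sites, 55 were such sites in THP1 and 6 in MOLM13, beside 2434 and 578 of 14881 in other genes. Of their 113 3' UTR sites, 6 were such sites in each line, beside 336 in THP1 and 254 in MOLM13 of 4198 in other genes. The THP1 libraries also listed more enriched peaks, with 504 and 487 in members and 18821 and 18414 in other genes, against 348 and 370 and 14084 and 14055 in MOLM13, and the part of these totals in the counts of sites was not tested. The highest of these, picked out by their folds, were in UBE2E2, an E2 gene, with 5.31 and 7.07 in THP1 at chr3:23540034-23540172, and in FBXO17 with 5.89 and 5.13 in MOLM13 at chr19:38956808-38956909. RNF213, a giant ligase with an ATPase core and the susceptibility gene of moyamoya disease, had a site in all 4 libraries with 6.38 and 5.90 in MOLM13, against 8.33 and 8.59 in THP1 at chr17:80276102-80276182. Over IgG this site had 2.81 and 1.22 in MOLM13, below the threshold, against 3.50 and 6.59 in THP1. RNF213 held 4, 5, 7 and 10 enriched peaks, and 24, 43, 53 and 62 clusters, so the number of clusters was also higher in THP1.

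**Figure D5:**
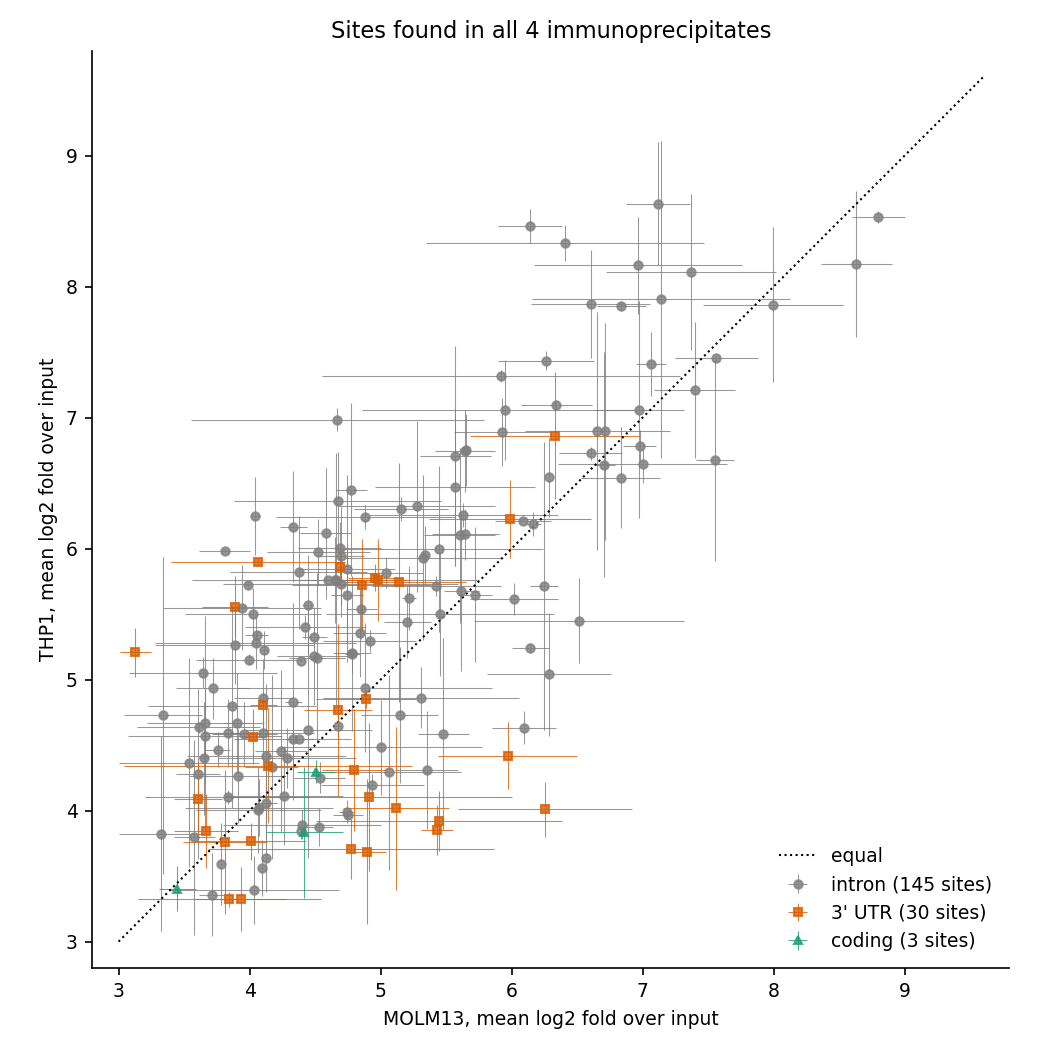
Mean log2 fold over input in THP1 (y axis) against MOLM13 (x axis) for member sites found in all 4 immunoprecipitates, with introns as grey circles, 3' UTRs as orange squares and coding sequence as green triangles; bars span the 2 replicates of a line and the dotted line marks equal values. Most intronic sites lie above the line (58 without overlap above it and 12 below), while 3' UTR sites lie on both sides (9 above and 7 below).

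Other genes of the ubiquitin relay were counted by lists, to be read beside the 38.6% of protein-coding genes that were targets of MOLM13 and the 41.9% that were targets of THP1; no list was tested. Of the 10 genes of ubiquitin itself and its E1 enzymes, all had clusters in both lines, and 1 was a target of MOLM13 (10%) and 2 of THP1 (20%). Of 25 genes of cullin-RING scaffolds and receptors, 14 were targets of MOLM13 (56%), 15 of THP1 (60%) and 13 of both. This list also holds RNF7, a member of the set that was a target of neither line. SKP1, the adaptor that binds every F-box protein, had a 3' UTR site with 6.63, 8.03, 7.26 and 7.65 at chr5:134151227-134151322, and CUL1, the SCF scaffold, had an intronic site with 7.85, 7.18, 6.64 and 7.24. Of 49 HECT and other ligases, 33 of 44 with clusters were targets of MOLM13 (75%) and 38 of 46 of THP1 (82.6%). Ranked by the lowest library, the strongest site of these lay in an intron of TRIP12 (9.0, 7.75, 8.45 and 10.6). Of 30 other deubiquitinases, 13 of 27 were targets in each line (48.1%) and 11 in both. TNFAIP3 (A20), the brake on NF-κB, had a 3' UTR site with 4.27, 4.37, 3.71 and 5.16 that passed over IgG in all 4 libraries.

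Among the members themselves, lists by known function gave the following counts. Of 26 genes of inflammatory and antiviral signalling, 23 had clusters in each line, 11 were targets of MOLM13 (47.8%, beside 45.1% of all protein-coding members), 14 of THP1 (60.9%, beside 56.6%) and 11 of both, and 2 had a 3' UTR target in both lines. Ranked by the lowest library, the strongest sites were in introns of RNF216, of USP4 (7.02, 6.65, 7.89 and 7.81) and of RNF31 (6.61, 6.07, 7.05 and 7.13), the catalytic subunit of the linear ubiquitin chain complex LUBAC. Over IgG the USP4 site had 5.04, 1.97, 5.06 and 6.81, and the RNF31 site 2.63, 2.71, 3.49 and 4.13. Of 38 genes of the cell cycle, chromatin and leukaemia, 22 of 36 with clusters were targets of MOLM13 (61.1%), 25 of 37 of THP1 (67.6%) and 19 of both, and 7 had a 3' UTR target in both lines. FBXO11, a receptor of BCL6, had an intronic site with 6.10, 7.21, 5.99 and 7.81. FBXW7, the receptor for MYC and cyclin E, was no target of MOLM13, where it held 2 and 0 peaks, and held 4 and 4 in THP1, the highest at 4.78 and 4.55. All FBXW7 sites were intronic.

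At a stricter threshold (4 for the log2 fold, 5 for the −log10 p) the THP1 targets fell from 128 to 80, the genes bound in all 4 libraries from 95 to 59, the shared 3' UTR sites from 30 to 10 and the shared intronic sites from 145 to 83. Targets and sites of other genes were not counted at this threshold, so these falls cannot be called particular to the members. Gaps in fold between the lines carry no test, since an exact test of 2 replicates against 2 cannot go below p = 0.333.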

How the data were processed

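ZFP36L2 eCLIP libraries of MOLM13 and THP1 were used as processed by the authors. Per the submitters' processing notes, cutadapt 1.14, STAR 2.5.0c, Picard 2.6.0 and edgeR were used, and the builds hg19, GRCh37 and hg38 are named with no role. The deposited tables give, per immunoprecipitate and not pooled, the authors' −log10 p and log2 fold over input for enriched peaks with gene and region, and over IgG for every cluster (140287, 182486, 153162 and 143910 clusters). The peak caller, the read depth, the scaling and the test behind p are not given in these sources, so no interval from counts is given. The coordinates fit hg38.

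Values over IgG were joined by identical coordinates and strand. IgG lists of THP1 were tied to their immunoprecipitate the same way. Sites join peaks sharing at least 1 base on a strand. Clusters were assigned to RefSeq genes that hold them whole, on the gene's strand where it was known (27303 of 59792 genes) and otherwise on both. Of 514 member sites, 509 lay inside the named gene. Rows naming several genes (1420) were no members and made no single gene a target, and 1 of them held a family symbol. Tests were exact permutations over libraries, and their scripts were tested on simulated data (Python 3.11.15, pandas 2.3.3, numpy 2.4.6, matplotlib 3.10.9).

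Named in each family were up to 4 genes with the strongest 3' UTR site and up to 2 with the strongest intronic site in all 4 libraries, ranked by the lowest library. To these came up to 6 per line with a 3' UTR target and no peak in the other line, coding sites in all 4 libraries, the 5 genes with the most such sites, and up to 3 genes per list. An item that the rule names is not reported here. Other genes and sites in the text were picked out after their values were seen. The members, lists and rules were chosen with earlier results of these data known.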

Additional observations from a re-analysis of the deposited data

Results flagged for a closer look

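Some clusters inside the ubiquitin genes were enriched over IgG and were not among the peaks over input, which the comparisons above do not use. There were 14 in MOLM13 replicate 1, 6 in MOLM13 replicate 2, 5 in THP1 replicate 1 and 16 in THP1 replicate 2. One place recurred in 3 libraries. In FBXL20 at chr17:39257763-39257891, between the shared 3' UTR sites of this gene, the log2 fold over IgG was 4.22 and 3.63 in MOLM13 and 3.87 in THP1 replicate 2. In THP1 replicate 1 a peak over input overlapped the place.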

How the results depend on the processing

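Every alternative run kept the direction of the 5.74 point lower 3' UTR share in THP1. Both MOLM13 shares lie above both THP1 shares, so leaving out 1 library or pairing the replicates could not turn it. With 1 library left out, its size ranged from -7.99 points without MOLM13 replicate 1 to -3.48 without MOLM13 replicate 2. The runs that could turn it gave -3.73 at the stricter threshold, -6.02 with protein-coding members only and -5.28 with touching peaks merged. With the replicate numbers as pairs (a replicate block) the difference is again -5.74 points and the exact sign-flip permutation gives p = 0.5, the smallest for 2 pairs; the labels do not say what a number shares. At the stricter threshold the counts, taken for members only, were 70 MOLM13 targets, 80 THP1 targets, 59 in both lines, 10 shared 3' UTR sites and 83 shared intronic sites. With IgG also required, they were 44 in MOLM13, 78 in THP1, 39 in both lines, 19 3' UTR sites and 21 intronic sites; this counts a site where any of its peaks passed, against 17 and 20 by the highest peak. Of the differences between members and other genes, that in peaks over IgG stayed negative, from -1.99 at the stricter threshold to -0.0212 at a log2 fold over IgG of at least 1, and was -0.409 without MOLM13 replicate 1. The other two changed sign. The difference in 3' UTR share was 0.329 points with protein-coding members only and 0.0864 with touching peaks merged, and ranged from -0.458 to 0.332 when 1 library was left out, positive without MOLM13 replicate 1 or THP1 replicate 1. The difference in peaks found again was 0.0124 and 0.384 under the same settings, and ranged from -2.10 to 1.87, positive when a MOLM13 library was left out, which leaves THP1 alone. In all, 54 values of the comparisons kept their direction or, for counts, stayed within 1.5 times. Another 9 counts moved further than that, and 8 differences changed sign. The exact sign-flip test over 4 libraries cannot go below p = 0.125, and the other exact tests stop higher. No run could therefore change the side of a usual limit for p. For named sites the mean fold was taken again with 1 of the 4 libraries left out, which gave 168 values. All of them moved by less than the SD of the 4 folds. Leaving out 1 of 4 values can never move a mean by that much. How far the named sites depend on single libraries was therefore not tested. The share of 3' UTR peaks with a UAUUUA motif, with its alternatives, was not run, since no genome sequence was used here. Depth per library is unknown, and folds near the threshold move in and out of the lists.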
